A study of Homo sapiens with 17 samples.

Results

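Expression was compared between Ishikawa cells that received recombinant human PSAT1 together with progesterone (P4) and cells that received P4 without PSAT1, both for 24 h. Ishikawa cells are an established line from a human endometrial adenocarcinoma and serve as a model of the endometrial epithelium, so all libraries come from 1 cancer line. RNA was sequenced from 17 cultures, and the comparison rests on 6 of them, 3 with PSAT1 and P4 and 3 with P4. The members of each group were chosen by the names of the columns of the deposited count table (PSAT1_P4 and VC_Nap_P4, replicates 1 to 3). For the PSAT1 libraries these names contradict the sample titles. The 3 columns named PSAT1_P4 belong to samples whose title and treatment field give PSAT1 alone, and the 3 columns named PSAT1 belong to samples whose title and treatment field give PSAT1 with P4. Column names were followed throughout, "PSAT1 + P4" and "PSAT1-column libraries" stand for these 2 sets, and the result under the titles is given beside the main one. The P4 libraries carry a vehicle component that the labels call Nap and leave undefined, and no label says whether PSAT1 was given in Nap. The other libraries are 3 untreated controls, 3 with a vehicle of Nap and ethanol (called vehicle below) and 2 with Nap alone. Ethanol is named for the vehicle libraries and not for the P4 libraries, and the labels give no dose of PSAT1 and no dose of P4 for a given sample.

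PSAT1 (phosphoserine aminotransferase 1) is the middle enzyme of serine synthesis from glucose. PHGDH makes its substrate from a glycolytic intermediate, PSAT1 transfers an amino group from glutamate, and PSPH releases serine, which feeds glycine and one-carbon metabolism. The genes of this route, of asparagine synthesis and of many aminoacyl-tRNA synthetases are known targets of ATF4, the transcription factor of the integrated stress response, which binds with C/EBP proteins to elements that contain TGATGNAA. Progesterone acts through its receptor PGR and is known to restrain proliferation of the endometrial epithelium. PSAT1 is an intracellular enzyme, and the comparison asks whether the protein, added to the medium, altered transcript levels in P4 treated cells.

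No gene was called between PSAT1 + P4 and P4. Of 15621 genes tested, 12523 of them protein coding, 0 (0%) passed an adjusted p under 0.05 in edgeR's quasi-likelihood test, and the smallest adjusted p was 0.9998. At an unadjusted p under 0.05 there were 199 genes (1.27%), of which 66 (0.423%) were higher and 133 (0.851%) lower with PSAT1. DESeq2 called 0 genes, with 75 of 32160 tested at an unadjusted p under 0.05. Limma voom with sample quality weights, chosen after seeing the data, called 0, with 897 of 15621. The 3 libraries of one group lay apart from the 3 of the other for 936 genes (5.99%), 546 (3.50%) with the PSAT1 + P4 libraries above and 390 (2.50%) with them below. With the groups read from the sample titles, 9641 of 16882 genes (57.1%) were called, since the PSAT1-column libraries then stand in for PSAT1 + P4. The absence of calls therefore holds for the column names only.

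For most of the genes that passed the filter and were tested, the intervals give a range of changes. They are intervals of single genes with no adjustment over the 15621 genes, so some are expected to miss the true value. The median absolute log2 fold change over all genes was 0.07, the median standard error was 0.13, and the 95% interval of a gene had a median half-width of 0.28 log2 units. That interval lay within a 2-fold change in either direction for 14399 genes (92.2%) and within a 1.5-fold change for 11463 (73.4%). Among 7949 genes between 10 and 100 counts per 1000000 of the scaled library (CPM), 99.8% had an interval within 2-fold and 97.8% within 1.5-fold. Among 5514 genes between 1 and 10 CPM the shares were 79.4% and 30.1%. Library totals were 10414752 to 11817077 counts with PSAT1 + P4 and 10786880 to 14095023 with P4. In these libraries 3 counts corresponded to 0.213 to 0.288 counts per 1000000 of the total before scaling. The log2 fold change exceeded 1 in either direction for 21 genes, of which 4 were protein coding.

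**Figure D1:**
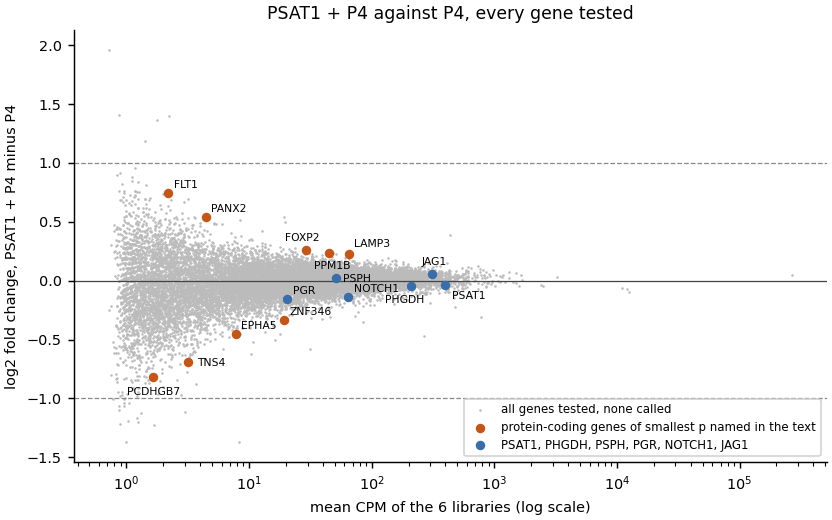
Log2 fold change between PSAT1 + P4 and P4 (vertical axis) against the mean CPM of the 6 libraries (log scale) for each of 15621 genes. None was called; the spread of the grey points widens toward low CPM, and the 9 protein-coding genes of small p named in the text (orange) lie at its edge, while PSAT1, PHGDH, PSPH, PGR, NOTCH1 and JAG1 (blue) lie near 0.

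The libraries of both groups were interleaved. On the first principal component of log2 CPM, which carried 61.8% of the variance over 18232 genes, the PSAT1 + P4 libraries stood at 59.2, 70.3 and 72.8 and the P4 libraries at 46.3, 76.0 and 63.5. The other 11 libraries lay between -41.2 and -23.4, PSAT1-column libraries included. The group means of 67.4 ± 7.28 and 61.9 ± 14.9 (SD, n = 3) differed by 5.52, with p = 0.7 in a two-sided exact permutation test whose smallest possible p is 0.1. P4 replicate 1 was the lowest of the 6 on this axis, and 0 genes were called in the edgeR test without it, with 344 at an unadjusted p under 0.05. That unadjusted count was 602 without P4 replicate 2, 299 without PSAT1 + P4 replicate 3 and between 158 and 222 without each of the others, beside 199 with all 6 libraries. The counts of 2 libraries from different groups differed by a chi-square per degree of freedom of 2.18 to 9.91 (median 5.36, 9 pairs), and those of 2 libraries of the same group by 4.95 to 13.3 (median 5.71, 6 pairs). PSAT1 + P4 replicate 3 and P4 replicate 2 differed by 2.18, PSAT1 + P4 replicate 2 and P4 replicate 3 by 2.44, and both replicates 1 by 4.05. These values were below that of every same-group pair. The edgeR test without pairing counts such differences as spread within groups, and whether this lowered the number of calls was not tested. Of 16 epithelial markers, none was at or under 3 counts in every library of a group, and their summed level was 1677 to 1813 CPM with PSAT1 + P4 and 1648 to 1815 CPM with P4. Of 10 stromal fibroblast markers, DCN and PDGFRB were at or under 3 counts in all 6 libraries and the other 8 were not, and the list summed to 144.8 to 172.7 CPM with PSAT1 + P4 and 141.3 to 192.5 CPM with P4. In RNA of whole cultures, fewer cells of a kind and less RNA per cell cannot be told apart.

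PSAT1 mRNA itself stood at 434, 390 and 353 CPM with PSAT1 + P4 and at 468, 335 and 394 CPM with P4. The groups overlapped, and the log2 fold change was -0.03 (95% interval -0.29 to 0.22, adjusted p = 0.9998). Since the treatment was with the protein, the mRNA level does not check whether PSAT1 was added. In the vehicle libraries PSAT1 mRNA was 236, 232 and 233 CPM, below all 6 libraries of the P4 groups. The gene (ENSG00000135069.14) lies on chromosome 9, at 78297143 to 78330093 of GRCh38 on the plus strand.

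The remaining genes of serine synthesis were as close. PHGDH, the first enzyme of the route, had 203, 212 and 203 CPM with PSAT1 + P4 and 212, 210 and 212 CPM with P4. Its log2 fold change was -0.05 (interval -0.18 to 0.08), which leaves out a change of 1.5-fold in either direction. PSPH, the last enzyme, had 57.4, 47.7 and 50.3 CPM against 55.5, 43.7 and 52.8 CPM, a log2 fold change of 0.02 (interval -0.22 to 0.26). The groups overlapped for both enzymes. Of 23 listed genes of serine, one-carbon and asparagine synthesis, 22 were tested, 0 were called and 0 passed even an unadjusted p under 0.05. Their median log2 fold change was 0.02, beside -0.002 for all genes tested. The members at the ends were GLDC, a subunit of the glycine cleavage system, at -0.21 (interval -0.68 to 0.26), and CTH, which makes cysteine from cystathionine, at 0.23 (interval -0.14 to 0.60). The cytosolic serine hydroxymethyltransferase SHMT1, which interconverts serine and glycine, had 28.9, 24.3 and 27.2 CPM against 31.5, 26.2 and 28.2 CPM.

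Windows of the RefSeq promoters (GRCh38.p14, 250 bases before to 50 after a RefSeq start, of which a gene can have several) are shown for 5 genes whose P4 levels follow, to show where the letters TGATGNAA occur. The first window with a match is shown for each gene. Each line holds 30 bases of the gene's own strand, 5′ to 3′, with the match in capitals, and a match to the opposite strand appears as its reverse complement.
CEBPG: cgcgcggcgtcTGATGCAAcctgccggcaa
ASNS: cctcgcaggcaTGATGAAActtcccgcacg
ATF3: aaaggtcaggaTGATGGAAggctgtcatat
CHAC1: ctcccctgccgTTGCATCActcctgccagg
AARS1: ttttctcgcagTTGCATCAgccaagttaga
Distances below are to the RefSeq start of the window shown, and the CEBPG, ASNS and CHAC1 matches lie inside the GENCODE 29 bounds of these genes. The CEBPG window is chr19:33374060-33374089 (plus strand), with the match starting 42 bases before that start. The ASNS window is chr7:97872458-97872487 (minus strand, 68 bases before), the ATF3 window chr1:212565205-212565234 (plus, 191 bases before), the CHAC1 window chr15:40953251-40953280 (plus, 209 bases before, opposite strand) and the AARS1 window chr16:70289675-70289704 (minus, 187 bases before, opposite strand). Both strands were searched. The letters occurred in 3.62% of all 35116 promoter windows, in 5 of 29 windows (17.2%) of the 18 ATF4 list genes matched among 20 and in 7 of 21 windows (33.3%) of 16 matched synthetase genes. The single PSAT1 window held 0 matches. A match describes these letters and is no measured binding site.

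The 5 genes with these windows were called higher than vehicle with P4 (26.6% of all genes tested were) and with PSAT1 + P4 (30.7%). Between these groups 0 of them were called. They were chosen with these results known, so their calls say nothing about the letters in their promoters. CEBPG, a C/EBP protein that pairs with ATF4, had 257, 262 and 254 CPM with PSAT1 + P4 and 228, 271 and 247 CPM with P4, beside 54.9 to 57.6 CPM in the vehicle libraries. Its log2 fold change between PSAT1 + P4 and P4 was 0.04 (interval -0.12 to 0.20). ASNS, the asparagine synthetase, had 30.1, 29.8 and 32.6 CPM against 32.5, 30.2 and 26.6 CPM, a log2 fold change of 0.04 (interval -0.18 to 0.26). ATF3, a stress-induced transcription factor, had 199, 231 and 231 CPM against 131, 276 and 201 CPM, and its interval was -0.43 to 0.65. The P4 libraries enclosed the PSAT1 + P4 libraries for ATF3, and P4 replicate 1 was the lowest. CHAC1, which breaks down glutathione, had 37.8, 35.3 and 32.9 CPM against 45.0, 33.7 and 32.2 CPM. AARS (AARS1 in RefSeq), the alanyl-tRNA synthetase, had 451, 490 and 501 CPM against 408, 519 and 489 CPM.

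Of the 20 genes on the ATF4 stress response list, all 20 were tested, 0 were called between PSAT1 + P4 and P4, and the median log2 fold change was 0.004. The extremes were VLDLR, a lipoprotein receptor, at -0.17 (interval -0.40 to 0.05), and FAM129A, a regulator of translation under stress, at 0.12 (interval -0.07 to 0.31). FAM129A had 327, 347 and 318 CPM with PSAT1 + P4, 260, 323 and 325 CPM with P4 and 12.8, 15.4 and 14.9 CPM with vehicle. JDP2, a partner of AP-1 factors, was at -0.14 (interval -0.36 to 0.08). Against vehicle, all 20 of these genes were called higher with P4 (26.6% of all genes tested were) with a median of 1.85, and 19 of 19 tested were called higher with PSAT1 + P4 (30.7% of all genes) with a median of 1.79. These 2 comparisons share the vehicle libraries.

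The cytosolic aminoacyl-tRNA synthetases, which charge tRNAs with amino acids, had a median log2 fold change of 0.05 over 20 tested members, with 0 called and all 20 intervals within 1.5-fold. The log2 fold change was above 0 for 19 members and below 0 for 1, and this shared sign was not tested. DARS, for aspartate, was highest at 0.10 (interval -0.06 to 0.26), and QARS, for glutamine, was lowest at -0.02 (interval -0.16 to 0.12). WARS, for tryptophan, had 261, 249 and 251 CPM with PSAT1 + P4 and 219, 251 and 242 CPM with P4. Of 17 amino acid transporters tested, 0 were called and 16 had an interval within 1.5-fold. Among them SLC43A1, a carrier of large neutral amino acids, stood at 37.3, 33.2 and 35.3 CPM against 35.4, 31.3 and 34.4 CPM, beside 4.02 to 5.79 CPM in the vehicle libraries. Its relative SLC43A2 had a log2 fold change of -0.28 (interval -0.71 to 0.16). Of 21 ER chaperone and degradation genes, 0 were called, and the unfolded protein response factor XBP1 had 315, 330 and 326 CPM against 273, 330 and 302 CPM.

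**Figure D2:**
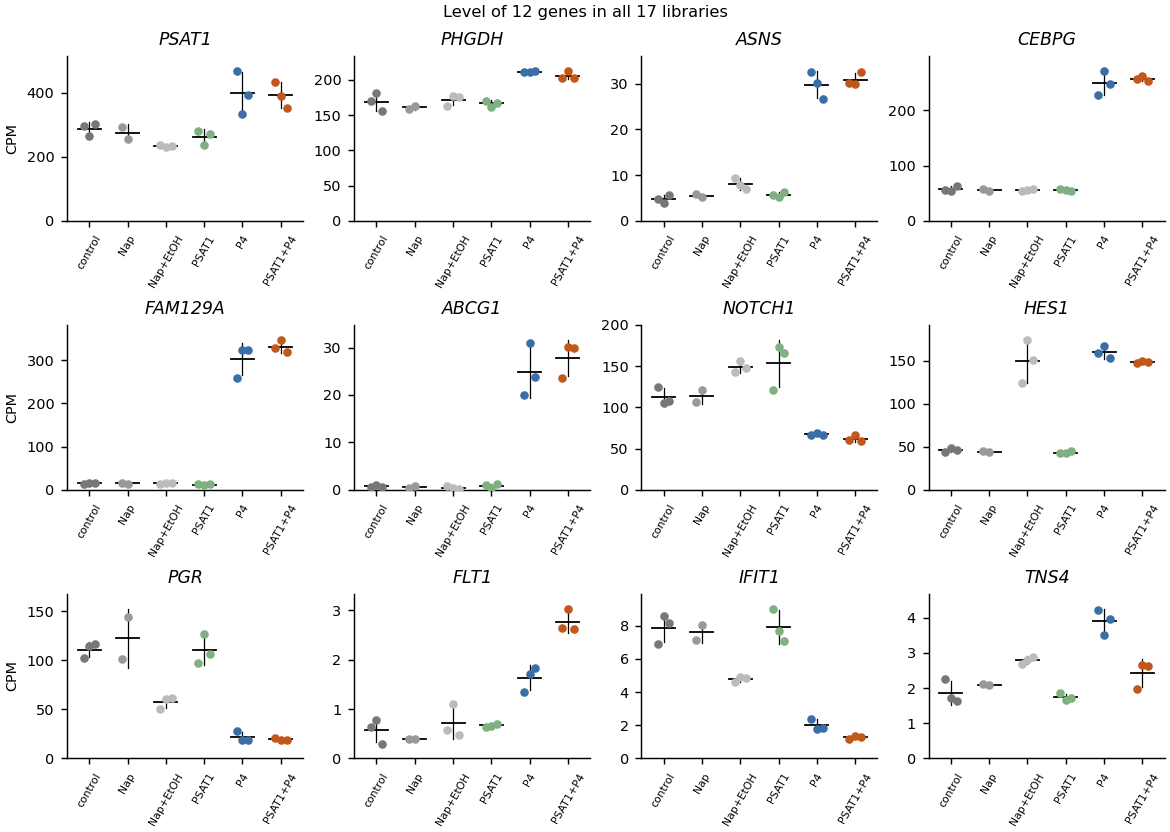
Level (CPM, linear axes from 0) of 12 genes in all 17 libraries; points are libraries, horizontal bars means and vertical bars 1 SD, with 3 libraries a group and 2 for Nap. P4 and PSAT1 + P4 libraries overlap for PSAT1, ASNS, CEBPG, FAM129A, ABCG1 and PGR, and they lie apart for NOTCH1, HES1, FLT1, IFIT1 and TNS4.

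**Figure D3:**
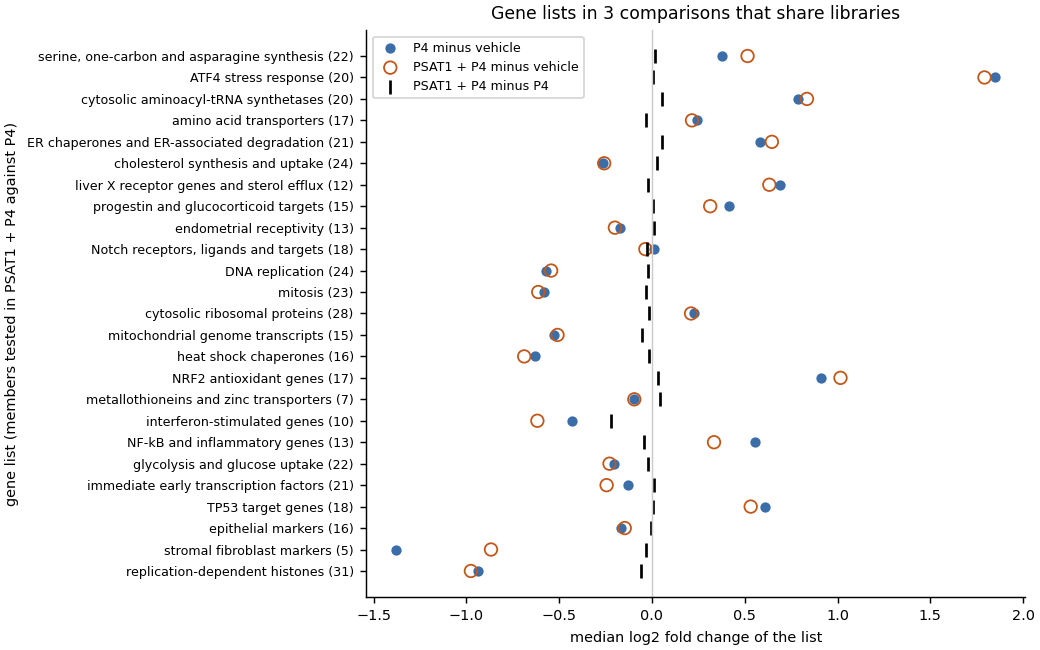
Median log2 fold change of each gene list in 3 comparisons that share libraries, PSAT1 + P4 minus P4 (bars), P4 minus vehicle (filled points) and PSAT1 + P4 minus vehicle (open circles), with the number of members tested in the first in brackets. The bars lie between -0.22 and 0.05, and the 2 comparisons with vehicle differ most for the stromal fibroblast markers (-1.38 with 7 and -0.87 with 6 members tested).

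No member of any list was called between PSAT1 + P4 and P4. Over all lists together 447 genes were tested, of which 4 (0.895%, beside 1.27% of all genes) had an unadjusted p under 0.05 and 20 (4.47%, beside 5.99%) had groups that did not overlap. The 4 were CMPK2, IFIT1, CXCL3 and the histone gene HIST1H4J. The interferon-stimulated genes had the lowest median, -0.22 over 10 tested of 25 listed. IFIT1, which binds viral RNA, had 1.18, 1.38 and 1.26 CPM with PSAT1 + P4 against 2.40, 1.80 and 1.83 CPM with P4, which rests on 12 to 15 and 21 to 25 counts. Its log2 fold change was -0.65 (interval -1.25 to -0.06, adjusted p = 0.9998). CMPK2, a mitochondrial nucleotide kinase, was at -0.92 (interval -1.69 to -0.15) from 5 to 10 and 15 to 19 counts. IFIT3, of the same family as IFIT1, was at 0.15 (interval -0.47 to 0.76). Of the 10 tested genes, 7 were lower and 3 higher with PSAT1, so they did not share 1 direction.

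Of 13 inflammatory genes tested, 0 were called. The neutrophil chemokine CXCL3 had 3.34, 3.405 and 4.21 CPM with PSAT1 + P4 and 1.63, 2.83 and 2.29 CPM with P4, a log2 fold change of 0.67 (interval 0.14 to 1.21). The related CXCL1 was at -0.57 (interval -1.27 to 0.12), the opposite sign. Lipocalin LCN2 had 10.4, 8.47 and 8.84 CPM against 7.88, 9.02 and 7.09 CPM, with overlapping groups.

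Of the antioxidant genes controlled by NRF2, 17 were tested, 0 were called and 16 had an interval within 1.5-fold. HMOX1, the heme oxygenase, had 18.3, 13.7 and 12.8 CPM with PSAT1 + P4 and 10.7, 13.2 and 11.97 CPM with P4, a log2 fold change of 0.31 (interval -0.03 to 0.65). GCLM, a subunit of the enzyme that starts glutathione synthesis, had 119, 115 and 112 CPM against 101, 103 and 107 CPM. These 2 groups did not overlap, with a log2 fold change of 0.14 (interval -0.00020 to 0.29).

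Of 12 genes of liver X receptor and sterol efflux, 0 were called. The sterol exporter ABCG1 had 23.5, 30.2 and 29.9 CPM with PSAT1 + P4 and 19.98, 30.9 and 23.9 CPM with P4, beside 0.161 to 0.765 CPM with vehicle, where it had 2 to 5 counts. ABCG4, a related exporter, was at -0.52 (interval -1.07 to 0.03). Among 24 genes of cholesterol synthesis and uptake, 0 were called and 23 intervals lay within 1.5-fold, with NSDHL at 0.16 (interval -0.12 to 0.43) and FDPS at -0.05 (interval -0.21 to 0.10). All 24 DNA replication genes and all 23 mitosis genes tested had intervals within 2-fold, and 0 were called. Against vehicle, 21 of the 24 and 21 of the 23 were called lower with P4 (26.5% of all genes tested were), and 21 of 24 and 22 of 23 with PSAT1 + P4 (29.7%). The proliferation marker MKI67 had 213, 221 and 289 CPM with PSAT1 + P4 and 254, 278 and 238 CPM with P4, and the replication factor GINS2 was at -0.31 (interval -0.76 to 0.14). Mitochondrial genome transcripts were less precise, with 10 of 15 intervals within 1.5-fold. MT-CYB, of complex III, had 79.2, 52.0 and 95.1 CPM against 98.4, 101 and 87.5 CPM, and MT-ND3, of complex I, was at 0.23 (interval -0.10 to 0.57). The mitochondrial 16S rRNA took 24.0% to 27.1% of the counts in these 6 libraries.

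Of 15 progestin and glucocorticoid targets tested, 0 were called. PGR, the progesterone receptor, had 20.9, 19.2 and 18.3 CPM with PSAT1 + P4 and 27.6, 18.4 and 19.1 CPM with P4, against 49.9 to 61.8 CPM with vehicle and 102 to 116 CPM in the untreated controls. The log2 fold change between the P4 groups was -0.16 (interval -0.50 to 0.18). NR3C1, the glucocorticoid receptor, had 120, 143 and 128 CPM against 99.4, 137 and 123 CPM. In the endometrial receptivity list (13 tested, 0 called), HOXA11, a transcription factor needed for implantation, had 2.36, 2.67 and 2.42 CPM against 2.02, 1.54 and 1.83 CPM, a log2 fold change of 0.46 (interval -0.06 to 0.98). IGFBP3, a carrier of insulin-like growth factors, was at -0.16 (interval -0.38 to 0.05).

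Of 18 Notch pathway genes tested, 0 were called. The receptor NOTCH1 had 59.99, 66.1 and 59.4 CPM with PSAT1 + P4 and 66.7, 69.4 and 66.9 CPM with P4. The PSAT1 + P4 libraries were all below, and the log2 fold change was -0.14 (interval -0.30 to 0.02, adjusted p = 0.9998). The ligand JAG1 had 247, 364 and 348 CPM against 228, 373 and 317 CPM, a log2 fold change of 0.05 (interval -0.36 to 0.47). The target HES1 had 148, 150 and 148 CPM with PSAT1 + P4 and 159, 167 and 153 CPM with P4. HES1 stood at 124, 173 and 151 CPM in the vehicle libraries with ethanol and at 42.1 to 47.9 CPM in the 8 control, Nap and PSAT1-column libraries. HEYL, another target, was at 0.27 (interval -0.14 to 0.68).

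The protein-coding genes of smallest p among those with a mean of at least 2 CPM in 1 group, given here as not called, had small changes or low levels. With PSAT1 they were higher for FLT1, PANX2, FOXP2, PPM1B and LAMP3 and lower for ZNF346, TNS4, EPHA5 and PCDHGB7, each with an adjusted p of 0.9998. FLT1, a receptor for vascular endothelial growth factor, had 2.65, 3.04 and 2.63 CPM with PSAT1 + P4 and 1.34, 1.72 and 1.83 CPM with P4, a log2 fold change of 0.74 (interval 0.22 to 1.26) from 25 to 33 and 14 to 24 counts. PANX2, a pannexin channel protein, had 4.81, 5.80 and 5.26 CPM against 3.75, 3.52 and 3.58 CPM. FOXP2, a forkhead transcription factor, had 31.9, 31.4 and 33.2 CPM against 27.0, 26.7 and 26.2 CPM, a log2 fold change of 0.26 (interval 0.08 to 0.45). The 3 higher genes above 25 CPM, FOXP2, the phosphatase PPM1B (0.23, interval 0.07 to 0.40) and the lysosomal membrane protein LAMP3 (0.22, interval 0.06 to 0.39), thus had upper bounds below 1.5-fold.

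Among those lower, TNS4, a tensin of focal adhesions, had 1.96, 2.67 and 2.63 CPM with PSAT1 + P4 and 4.23, 3.52 and 3.96 CPM with P4, a log2 fold change of -0.70 (interval -1.17 to -0.23). The ephrin receptor EPHA5 had 6.19, 6.81 and 6.84 CPM against 10.2, 8.33 and 8.54 CPM. The zinc finger protein ZNF346 had 16.1, 17.03 and 18.1 CPM against 22.3, 21.0 and 21.0 CPM, a log2 fold change of -0.34 (interval -0.56 to -0.12). The protocadherin PCDHGB7 was at -0.82 (interval -1.43 to -0.22). PCDHGB7 shares exons with its gene cluster, so its count is uncertain. The libraries of the 2 groups lay apart for all 9 genes, which were chosen for their small p, beside 5.99% of all genes tested.

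**Figure D4:**
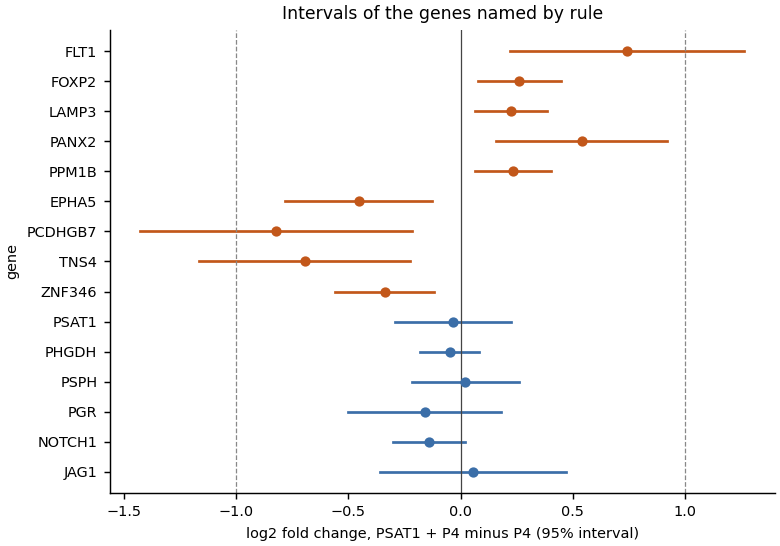
Log2 fold change between PSAT1 + P4 and P4 (points) with its 95% interval from the edgeR test (lines) for the 9 protein-coding genes of small p named in the text (orange) and for PSAT1, PHGDH, PSPH, PGR, NOTCH1 and JAG1 (blue); dashed lines mark a 2-fold change. The orange intervals leave out 0 before adjustment over 15621 genes, and all blue intervals include 0 and stay within 2-fold.

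The 4 protein-coding genes beyond 1 log2 unit were chosen after their values were seen and had low counts, at most 24 in any of the 6 libraries. The tubulin TUBB4A had 0.589, 0.644 and 0.421 CPM with PSAT1 + P4 and 1.54, 1.29 and 1.52 CPM with P4, from 4 to 7 and 15 to 20 counts, a log2 fold change of -1.38 (interval -2.12 to -0.63). ZNF454, a zinc finger protein, was at 1.19 from 18 to 22 and 8 to 12 counts. FAM198B was at -1.20 from 7 to 8 and 16 to 24 counts, and AMY2B, of the near-identical amylase family, at -1.06 from 5 to 9 and 12 to 21 counts. The adjusted p of each was 0.9998. The small nucleolar RNA SNORD3A, of a multicopy family, had 198, 220 and 263 CPM against 254, 343 and 338 CPM, a log2 fold change of -0.47 (adjusted p = 0.9998). SNORD3A was called, at an adjusted p of 4.42e-05, when no filter on low counts was used.

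Both groups carried the response to P4. Against vehicle, 8774 of 16540 genes (53.0%) were called with P4 and 9724 of 16121 (60.3%) with PSAT1 + P4. Of these, 884 genes were higher and 1162 lower beyond 1 log2 unit with P4 (5.34% and 7.03% of those tested), and 924 and 1313 with PSAT1 + P4 (5.73% and 8.14%). These comparisons share the vehicle libraries and are given side by side. Vehicle replicate 1 was shallow, with 4999521 counts beside 13403346 and 12333423 in replicates 2 and 3. On the second principal component it stood at -50.1, and replicates 2 and 3 at -31.1 and -31.9. The median level of the 884 genes above vehicle was 1.24, 1.37 and 1.36 log2 units in the PSAT1 + P4 libraries and 1.12, 1.42 and 1.33 in the P4 libraries. For the 1162 genes it was -1.10, -1.22 and -1.24 with PSAT1 + P4 and -0.97, -1.30 and -1.16 with P4. P4 replicate 1 had the weakest response of the 6 libraries in both sets. The PSAT1-column libraries, which the titles call PSAT1 with P4, lay between -0.05 and -0.02 for the first set and between -0.13 and -0.04 for the second. No library was reassigned by these values.

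**Figure D5:**
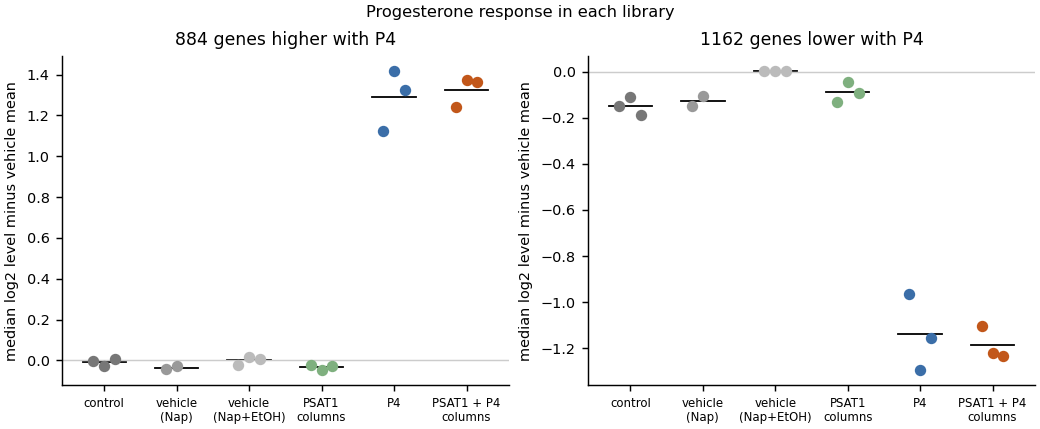
Median log2 level, relative to the mean of the vehicle libraries, of the 884 genes higher and the 1162 genes lower with P4, for each library (points) with the group mean (bars). The PSAT1 + P4 libraries (1.24 to 1.37 and -1.24 to -1.10) fall within the range of the P4 libraries, and the other 11 libraries lie near 0; the sets were chosen on the P4 and vehicle libraries, so those values describe the choice.

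Of those 884 genes, 883 were tested between PSAT1 + P4 and P4, with 0 called and a median log2 fold change of 0.03, and of the 1162, 722 were tested, with 0 called and a median of -0.07. The P4 libraries that chose these sets also enter these medians. A comparison with no library in common set PSAT1 + P4 against the PSAT1-column libraries, where 1196 genes were called higher and 1508 lower beyond 1 log2 unit (7.21% and 9.09% of 16586 tested). Of the genes higher in P4 against vehicle, 711 were also higher there, which is 80.4% of the 884 and 59.5% of the 1196. Of those lower, 823 were shared, 70.8% of the 1162 and 54.6% of the 1508. In the opposite direction 0 genes were higher in the first and lower in the second, and 4 were lower in the first and higher in the second. The second comparison has its direction only under the column names. HES1 had a log2 fold change of 1.76 in it and of 0.07 in P4 against vehicle, so a difference in vehicle and the response to P4 cannot be told apart there.

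Whether adding PSAT1 differed with and without P4 was tested as an interaction, the difference between PSAT1 + P4 and P4 minus that between the PSAT1-column libraries and the untreated controls. Of 17408 genes tested in edgeR, 0 were called, the smallest adjusted p was 0.985, and 652 (3.75%) had an unadjusted p under 0.05. DESeq2 called 0, with 512 of 36278 tested at an unadjusted p under 0.05. The PSAT1-column libraries against the controls also gave 0 called of 17214, with 1004 (5.83%) at an unadjusted p under 0.05. A difference in vehicle between the P4 libraries and the controls stays in the interaction unless the PSAT1 + P4 and PSAT1-column libraries differed in vehicle in the same way. The labels do not say whether they did. Under the sample titles 12094 of 17408 genes were called in the interaction. It then set the PSAT1-column libraries against P4 and the PSAT1 + P4 libraries against the controls. Both of these differences lie between libraries with and without the P4 response.

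Genes with the smallest interaction p included LACC1, an enzyme of purine metabolism, at 0.78 (interval 0.32 to 1.24), and CLGN, a chaperone of the ER, at 0.40 (interval 0.14 to 0.66), in one direction, and NOTCH1 at -0.58 (interval -0.89 to -0.27), ZNF346 at -0.48 (interval -0.76 to -0.19) and the estrogen-responsive gene GREB1 at -0.44 (interval -0.71 to -0.17) in the other, with none called. NOTCH1 stood at 121, 174 and 166 CPM in the PSAT1-column libraries and at 124, 105 and 108 CPM in the controls, a log2 difference of 0.46 with overlapping groups that enters the interaction. With no filter on low counts, NOTCH1 and HSPG2, which encodes perlecan, were called in the interaction. HSPG2 had 150, 185 and 180 CPM with PSAT1 + P4, 187, 187 and 193 CPM with P4, 121, 181 and 177 CPM in the PSAT1-column libraries and 134, 104 and 110 CPM in the controls.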

How the data were processed

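Stranded total RNA libraries of 17 Ishikawa cultures were sequenced. After trimming (Cutadapt) and quality filtering, the authors kept reads that Subread placed uniquely and obtained the count of each GENCODE 31 gene from featureCounts. The deposited values are whole-number counts of 60662 genes with no normalization. Tool versions and the strand setting are not given in the sources used here, so overlapping and antisense genes are uncertain, as are near-identical copies. Every column was matched to a sample, and the number of unused columns was 0.

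From the counts, edgeR 4.0.16 (R 4.3.3) was used with TMM, filterByExpr (minimum count 10), robust quasi-likelihood fits of the groups compared and Benjamini-Hochberg adjustment over all genes tested. Genes with an adjusted p under 0.05 were called. Intervals (95%) come from the same test. CPM levels were scaled by TMM over all libraries. The labels call the replicates biological, and the floor of 3 counts covers counting error only. Alternatives used DESeq2 1.42.0 and limma 3.58.1, each library left out, a replicate block, other scalings and filters, and groups by title. The method was tested on simulated data. Gene positions come from GENCODE 29 on GRCh38, which holds 43928 of the genes in the same version and 58542 by identifier. Figures and promoter searches used Python 3.11.15.

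The comparison, the gene lists and the named genes were chosen with earlier results of these data known. Named were the 5 protein-coding genes of smallest p in each direction (mean of at least 2 CPM in 1 group), the 2 list members of smallest adjusted p in each direction, ties broken by p, PSAT1, PHGDH, PSPH, PGR, NOTCH1 and JAG1, and the 5 genes of smallest interaction p in each direction. The text gives a part of these, and 2 results under this rule are not reported here. ASNS, ATF3, CHAC1 and AARS were added for their promoter windows, and TUBB4A, ZNF454, FAM198B, AMY2B, SNORD3A, RPS2P55, HSPG2 and AC104306.1 after their values were seen.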

Additional observations from a re-analysis of the deposited data

How the results depend on the processing

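Reading the groups from the sample titles changed the comparison more than every other choice. In the interaction 12094 of 17408 genes were called. In the main comparison 9641 of 16882 genes (57.1%) were called, 2516 of them beyond 1 log2 unit. Among them were 362 list members, and how many members were tested under the titles was not counted. No named gene was called in the main comparison, and most of their intervals there included 0. Of 64 named genes, 38 were called under the titles with the sign opposite to that of their main log2 fold change. They were higher for QARS (0.27), ZNF346 (0.42), FDPS (0.46), IGFBP3 (0.50), SHMT1 (0.62), AMY2B (0.70), MT-CYB (0.77), TUBB4A (0.86), MKI67 (0.87), GREB1 (1.00), GLDC (1.18), NOTCH1 (1.21), GINS2 (1.32), EPHA5 (1.40), SLC43A2 (1.41), IFIT1 (2.01) and PGR (2.38), and lower for ATF3 (-7.42), ABCG1 (-4.93), FAM129A (-4.63), LCN2 (-4.43), LAMP3 (-3.91), SLC43A1 (-2.54), FOXP2 (-2.47), CXCL3 (-2.39), ASNS (-2.34), CLGN (-2.33), HMOX1 (-2.21), CEBPG (-2.12), XBP1 (-1.41), WARS (-1.36), NR3C1 (-1.27), FLT1 (-1.26), JAG1 (-1.23), AARS (-1.05), GCLM (-0.86), PPM1B (-0.63) and CTH (-0.43), as log2 fold changes. A further 13 gained a call in the same direction, among them PSAT1 (-0.58), PHGDH (-0.32) and HES1 (-1.86). Under the other 14 settings, 863 of 890 log2 fold changes of named genes moved by less than 1 standard error, 24 moved by more, 3 passed the threshold and 21 changed sign, all of those without a call. The count of called genes was 0 to 1 when each library was left out, and likewise beyond 1 log2 unit. The 1 gene, without PSAT1 + P4 replicate 3, was RPS2P55, a pseudogene of RPS2 whose reads may be shared, at -3.04 (11.3 CPM in that library and 1.47 and 1.38 CPM in the other two). With no filter on low counts, 1 gene was called, SNORD3A, and 2 in the interaction, HSPG2 and NOTCH1, and the cause was not tested. With the Nap libraries as the reference, 1 gene was called in the interaction, AC104306.1. The share of intervals within 2-fold fell to 45.9% with no filter and 41.5% in DESeq2, which then covered more low genes (32162 and 32160). Leaving out each library of the 4 groups gave 0 called in the interaction. With the replicate number as a block, 1 gene was called, SNORD3A (adjusted p = 0.0129), 350 had an unadjusted p under 0.05, and 0 were called in the interaction. Deviations of same-numbered libraries from their group means correlated at 0.36, 0.10 and -0.08 over 15189 genes, and only number 1 correlated best with its own number. PSAT1 + P4 replicate 2 correlated best with P4 replicate 3 (0.14), and PSAT1 + P4 replicate 3 with P4 replicate 2 (0.27). No label says that numbers mark a shared batch, so pairing by number was not used, and a fit with the pairs that correlated best was not run. DESeq2, RLE and upper-quartile scaling, at least 10 counts in every sample, all 17 samples in the fit and voom with sample quality weights left 0 called, with 75 to 897 genes at an unadjusted p under 0.05. These settings tested from 14533 to 32160 genes, so the counts have unlike denominators. RLE and upper-quartile scaling moved the median of all genes to -0.0006 and -0.009. On the first principal component, a prior count of 0.5 and the 500 most variable genes gave differences of 6.99 and 2.35, each with an exact permutation p of 0.7.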
